A study of Mus musculus with 46 samples.

Results

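The RNA that POMC neurons were translating was compared between fasted mice injected with leptin and fasted mice injected with vehicle. The comparison comprised 4 of the 46 samples of the series, the 2 leptin and the 2 fasted RNA samples labelled as POMC neuron, which is all the series holds for these states. Mice were males that carried NuTRAP, a construct in which Cre recombinase switches on a GFP-tagged L10a ribosomal subunit and an mCherry-tagged nuclear envelope protein, together with POMC-IRES-Cre. Tagged ribosomes and their RNA were captured with an antibody to GFP (translating ribosome affinity purification, TRAP), and 4 arcuate nuclei from mice 6 to 11 weeks old were pooled for each sample, according to a protocol in the labels that is worded for the AgRP line. All mice of both states were fasted overnight for 18 to 20 h, and they received PBS (fasted) or leptin at 5 mg/kg (leptin) by intraperitoneal injection 3 h before the tissue was taken. A further 2 samples from mice fed ad libitum and injected with PBS (fed) shared the model, and 8 fasted and leptin samples of the same construct driven by AgRP-IRES-Cre served for the comparison of cell types. Cre driven by the Pomc gene marks every cell that expresses Pomc at the time, or did so earlier in development, and the pooled tissue does not separate subtypes of POMC neurons. In such bulk RNA, a change in the share of tagged cells and a change in RNA per cell cannot be told apart.

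POMC neurons of the arcuate nucleus cleave the precursor proopiomelanocortin into melanocortin peptides that reduce food intake, and they oppose the AgRP neurons beside them. Leptin, the hormone that fat tissue secretes in proportion to its stores, falls during a fast and acts on both cell types through the long form of its receptor. The receptor binds the kinase JAK2, which phosphorylates the transcription factor STAT3. Phosphorylated STAT3 activates target genes, among them the inhibitor Socs3, which binds the receptor and JAK2 and so ends the signal.

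The 4 libraries held between 30704075 and 45179694 counted reads. Pomc itself stood at 1128 to 1603 CPM (a gene's reads as a share of its library, after scaling) in these libraries and at 17.4 to 44.1 CPM in the 8 fasted and leptin libraries of AgRP neurons when all were scaled together, so the marker was present where the label places it. The libraries numbered 2 stood apart from those numbered 1 in every state. The astrocyte glutamate transporter Slc1a2 was read at 5033 to 6042 CPM in the libraries numbered 1 and at 22499 to 25934 CPM in those numbered 2, and at the thresholds used throughout 1861 genes were higher and 281 lower in the libraries numbered 2. The number was held as a block, as the definition of this comparison set out, so that each leptin library was in effect compared with the fasted library of its own number. The labels do not say whether an equal number marks a shared day or cohort. The ribosomal RNA transcript Rn45s was read at 9697 CPM in leptin library 1 and at 671 to 2971 CPM in the other 3.

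Leptin was followed by a short list of changes that was led by Socs3 and by transcription factors. Of 13412 genes with a mean over 1 CPM, 7 rose, which is 0.0522% of those tested, and 1 fell, which is 0.00746%. These calls came from edgeR's quasi-likelihood test and needed a Benjamini-Hochberg false discovery rate (FDR) under 0.05 together with a log2 fold change beyond 0.5 upward or downward. At an unadjusted p under 0.05, 619 genes had higher values in the leptin libraries (4.62%) and 403 had lower values (3%). Both leptin libraries lay above both fasted libraries for 1180 genes (8.8%) and below them for 1140 (8.5%).

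The block decided this count. Without it, edgeR called 0 genes in either direction, with 115 higher and 36 lower at an unadjusted p under 0.05, whereas DESeq2 without a block called 9 higher and 1 lower, of which 5 and 1 were the same genes. With the block, DESeq2 called 32 higher and 5 lower, and a model of the 4 libraries alone called 47 higher and 8 lower. Leaving out a library left its state with 1 library, assumed to vary like the other states, and the blocked model with 1 residual degree of freedom, so these counts are given as values and say nothing about how firm the calls are. The counts of higher and lower genes were 22 and 5 without fasted replicate 1, 122 and 19 without fasted replicate 2, 36 and 9 without leptin replicate 1, and 50 and 1 without leptin replicate 2. They were 35 and 3 without fed replicate 1, and 71 and 7 without fed replicate 2.

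**Figure D1:**
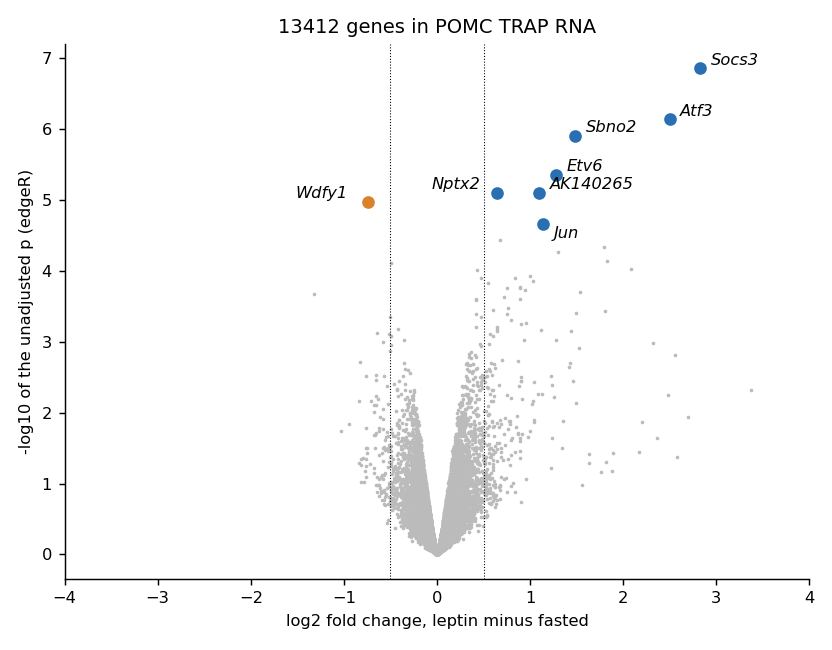
Each point is a gene, with its log2 fold change between leptin and fasted POMC libraries on the x axis and the -log10 of its unadjusted p on the y axis. Named points are the 7 genes called higher (blue) and the 1 called lower (orange), and the dotted lines mark a log2 fold change of 0.5 either way.

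Socs3, the feedback inhibitor of leptin receptor signalling, changed most among the called genes. It was read at 1.44 and 1.61 CPM in fasted libraries 1 and 2, from 51 and 46 reads, and at 12.4 and 9.02 CPM in leptin libraries 1 and 2, from 443 and 375 reads. Both leptin libraries lay far above both fasted libraries, and Socs3 rose 7.08-fold (log2 fold change 2.82 ± 0.20 SE, edgeR FDR 0.00187). Sbno2, a transcriptional co-regulator that is induced by cytokines acting through STAT3, was at 9.14 and 8.58 CPM in fasted libraries and at 29.5 and 20.4 CPM in leptin libraries. The states did not overlap, and Sbno2 rose 2.79-fold (log2 fold change 1.48 ± 0.13 SE, FDR 0.00561).

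Etv6, a repressor of the ETS family of transcription factors, had 10.1 and 15.3 CPM in fasted and 29.6 and 30.8 CPM in leptin libraries. Its leptin values were close to each other and well above the fasted ones, a rise of 2.42-fold (log2 fold change 1.28 ± 0.13 SE, FDR 0.0149). Atf3 and Jun encode transcription factors that bind DNA as partners in AP-1 dimers. Atf3 was at 1.52 and 0.733 CPM in fasted and at 8.08 and 4.64 CPM in leptin libraries, and it rose 5.65-fold (log2 fold change 2.50 ± 0.21 SE, FDR 0.00487). Jun was at 29.8 and 36.0 CPM in fasted and at 83.8 and 62.4 CPM in leptin libraries. The states again did not overlap, and Jun rose 2.20-fold (log2 fold change 1.14 ± 0.14 SE, FDR 0.0365), although its FDR was 0.0503 with DESeq2 size factors, 0.0643 with a filter of 5 CPM, 0.0745 with no filter and 0.104 with the older quasi-likelihood method.

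Nptx2 encodes a secreted pentraxin that clusters glutamate receptors at excitatory synapses. It had 84.3 and 54.3 CPM in fasted and 128 and 86.8 CPM in leptin libraries. The lower leptin value was only just above the higher fasted value, since both libraries numbered 2 lay below their counterparts, but the rise was of like size within each number (log2 ratios of 0.60 and 0.68), and the fit gave 1.56-fold (log2 fold change 0.64 ± 0.07 SE, FDR 0.0177). The transcript AK140265, which the annotation names only by its database entry, was at 37.3 and 194 CPM in fasted and at 99.1 and 341 CPM in leptin libraries. Its libraries overlapped between states and differed more between the numbers than between the states, and its call (2.14-fold, FDR 0.0177) rests on the block. Wdfy1, which encodes a WD-repeat protein of endosomes, was the gene that fell. It was at 43.0 and 42.2 CPM in fasted and at 25.5 and 25.4 CPM in leptin libraries, 0.598 times the fasted level (log2 fold change -0.74 ± 0.09 SE, FDR 0.0203), and its values differed little within a state. In a model of all 17 AgRP and POMC libraries, the FDR was 0.551 for AK140265, 0.210 for Nptx2 and 0.568 for Wdfy1, while the other 5 genes were called again.

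**Figure D2:**
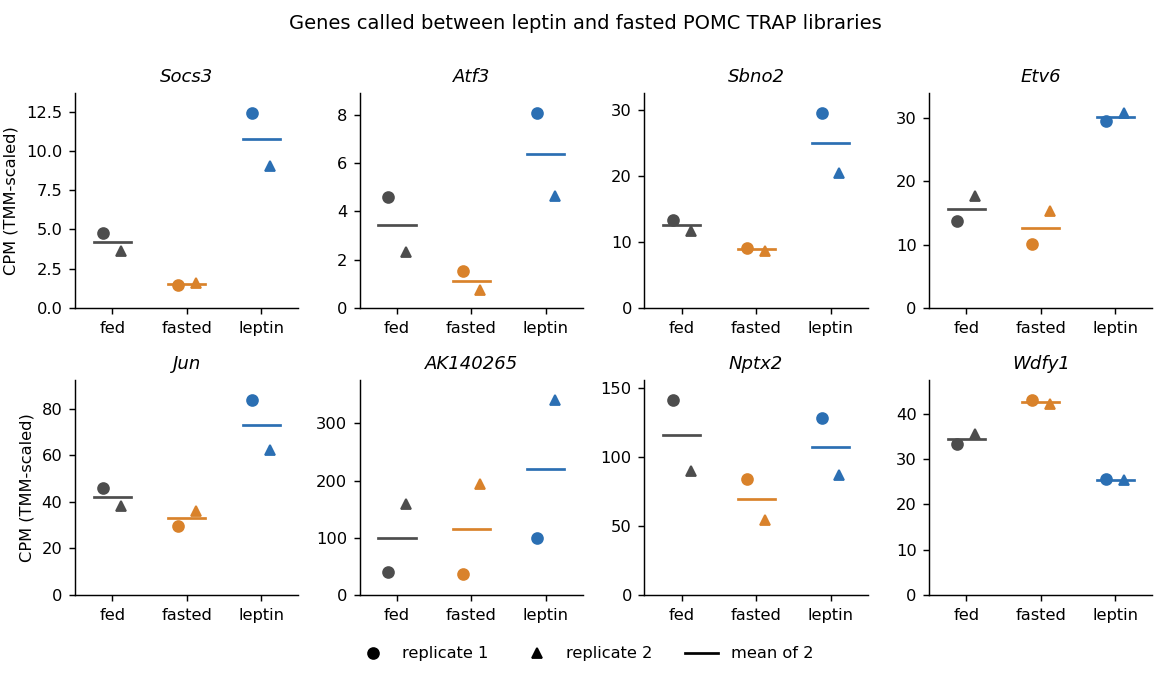
Each panel shows a called gene, with TMM-scaled CPM on a linear y axis from 0, a circle for replicate 1, a triangle for replicate 2 and a line at their mean, for fed, fasted and leptin POMC libraries. In 7 of the 8 panels the leptin and fasted points do not overlap, and in the panel of AK140265 the replicate number separates the points in each state.

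Because STAT factors bind the letters TTCNNNGAA, which read the same on both strands, the RefSeq promoter windows (GRCm38.p6, 250 bases before to 50 after a transcript start) of the called genes were searched for them. Windows were at hand for 5 of the 7 genes that rose, and 3 of these, Socs3, Sbno2 and Etv6, held the letters, while those of Atf3 and Jun did not. Of all 32851 windows 8.3% held them, and of the genes tested that had a window, 8.23% did. No window was at hand for Nptx2, AK140265 or Wdfy1. On this build RefSeq places the gene bodies of Socs3 at chr11:117966079-117970336, Atf3 at chr1:191170296-191183333, Sbno2 at chr10:80056992-80106108 and Etv6 at chr6:134035700-134270158. Those of Jun, Nptx2 and Wdfy1 lie at chr4:95049036-95052222, chr5:144545887-144557478 and chr1:79702262-79776143, and the reads were counted over exons. The windows with the letters are shown for the genes that rose, in lower case with TTCNNNGAA in capitals and read along the gene's strand. That of Socs3 lies at chr11:117969317-117969616 on the minus strand, with the letters starting 154 bases before the transcript start. That of Sbno2, the nearer to its start of 2 such windows, lies at chr10:80101138-80101437 on the minus strand with the letters 24 bases before the start. That of Etv6 lies at chr6:134035450-134035749 on the plus strand with the letters 21 bases after the start.
Socs3: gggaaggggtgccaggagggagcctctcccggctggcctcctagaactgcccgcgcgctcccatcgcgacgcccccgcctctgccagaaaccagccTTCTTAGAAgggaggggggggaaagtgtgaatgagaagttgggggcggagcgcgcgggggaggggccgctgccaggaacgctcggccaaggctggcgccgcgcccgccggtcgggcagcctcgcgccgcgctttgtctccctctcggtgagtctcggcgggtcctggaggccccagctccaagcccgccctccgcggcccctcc
Sbno2: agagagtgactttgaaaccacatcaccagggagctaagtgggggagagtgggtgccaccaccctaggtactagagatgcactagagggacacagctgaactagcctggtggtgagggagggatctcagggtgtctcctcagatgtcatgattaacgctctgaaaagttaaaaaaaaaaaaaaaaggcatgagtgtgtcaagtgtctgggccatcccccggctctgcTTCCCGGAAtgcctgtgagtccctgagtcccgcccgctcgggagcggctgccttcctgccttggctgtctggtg
Etv6: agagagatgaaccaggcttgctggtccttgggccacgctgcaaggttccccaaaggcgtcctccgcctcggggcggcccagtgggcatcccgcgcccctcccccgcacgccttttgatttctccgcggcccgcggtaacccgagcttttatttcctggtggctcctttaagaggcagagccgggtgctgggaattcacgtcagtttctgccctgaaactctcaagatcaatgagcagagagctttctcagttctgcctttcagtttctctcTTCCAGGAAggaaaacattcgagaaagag
The Etv6 window also holds GAAA, any 2 bases and GAAA, the letters bound by interferon regulatory factors, on the opposite strand, starting 14 bases ahead of the capitals. These letters were in 3.44% of all windows and in no other window of a gene that rose. A match of letters is a description of the sequence, and no binding was measured here.

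For the receptor and its core signalling chain, the median of the list stood near that of all genes, while a few members had higher values. Lepr, which encodes the leptin receptor, was at 33.8 and 21.4 CPM in fasted and at 29.3 and 21.0 CPM in leptin libraries, a log2 fold change of -0.12 ± 0.09 SE (edgeR FDR 0.770). Of the 18 core genes tested, 0 were called, and 3 had an unadjusted p under 0.05, all with higher values in leptin libraries. Among all genes these shares were 4.62% higher and 3% lower. Stat3 was at 111 and 102 CPM in fasted and at 180 and 135 CPM in leptin libraries (log2 fold change 0.55). Stat2, the STAT of interferon signalling, had a log2 fold change of 0.67, and the kinase Jak2 had 0.35. All 3 had leptin values above the fasted ones, as 8.8% of all genes did, and the median of the list was -0.02 beside 0.00038 for all genes tested.

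Feedback inhibitors mostly had higher values in leptin libraries. Of 17 on the list 15 were tested, of which 13 had a log2 fold change above 0, beside 6727 of all 13412 genes. Of the 15, 1 was called (Socs3), beside 0.0522% of all genes called higher. An unadjusted p under 0.05 was reached by 7, all 7 with higher values, beside 4.62% of all genes. The list's median log2 fold change was 0.23. Socs2 was at 9.22 and 11.9 CPM in fasted and at 23.1 and 19.0 CPM in leptin libraries (log2 fold change 1.00 ± 0.16 SE, FDR 0.0953). Cish, the inhibitor of STAT5 signalling, had a log2 fold change of 0.58, and the phosphatases Ptpn2 and Ptpn1, which act on JAK and STAT proteins and on JAK2, had 0.51 and 0.23. These 4 genes had leptin values above the fasted values in both libraries, without reaching the FDR threshold. Socs5, Socs7 and the ERK pathway inhibitors Spry1, Spry2 and Spry4 had log2 fold changes between -0.08 and 0.08.

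Known STAT3 targets also leaned toward higher values. Of 26 on the list 22 were tested, of which 20 had a log2 fold change above 0, beside 6727 of all 13412 genes. Of the 22, 2 were called (Socs3 and Sbno2), beside 0.0522% of all genes called higher. An unadjusted p under 0.05 was reached by 9, all with higher values, beside 4.62% of all genes. The median log2 fold change was 0.31. Irf9, a DNA-binding partner of STAT2, was at 12.1 and 9.88 CPM in fasted and at 23.1 and 14.5 CPM in leptin libraries (log2 fold change 0.75). Bcl3, a regulator of NF-κB, had a log2 fold change of 0.91 at about 1 CPM, and the survival factor Mcl1 had 0.32. The cytokine receptor chains Il6ra, Il6st, Osmr and Il4ra had log2 fold changes between -0.05 and 0.32. Several of these targets, Stat3 itself included, appear on more than a single list, so the lists are not independent of each other. The lists, that of feedback inhibitors included, were also chosen with earlier results of these data known. Their counts are therefore a description and not an independent test.

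Acute-phase and related genes held some members with large positive values. Of 37 on the list 11 were expressed above the filter and 5 had an unadjusted p under 0.05, all with higher values, beside 4.62% of all genes. Among the 11, 6 had a log2 fold change above 0. Both leptin libraries lay above both fasted libraries for 4 and below them for 2, beside 8.8% and 8.5% of all genes. The median log2 fold change was 0.08 over these 11, and 0.60 with no filter and 0.62 in the model of all 17 libraries, where other members enter. The protease inhibitor Serpina3i was at 1.38 and 0.977 CPM in fasted and at 4.63 and 2.31 CPM in leptin libraries (log2 fold change 1.54), and Serpina3g had a log2 fold change of 1.28. The members of the Serpina3 cluster are close copies of each other, so reads may have been divided between them. The metallothioneins Mt2 and Mt1, which bind zinc and copper, had log2 fold changes of 0.94 and 0.54. Both also stand on the list of glucocorticoid targets, of which 3 of 16 had an unadjusted p under 0.05 with a median log2 fold change of 0.02. Among interferon-stimulated genes and interferon regulatory factors, Irf9 and Irf1 were the 2 of 25 with an unadjusted p under 0.05, and the median was 0.07. The antiviral genes Rsad2 and Ifih1 had log2 fold changes of -0.49 and -0.39.

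Immediate early genes respond within minutes to hours of a stimulus. Of 27 tested, 2 were called higher (Atf3 and Jun), beside 0.0522% of all genes. With these 2, 5 had higher values at an unadjusted p under 0.05, beside 4.62% of all genes. The others were Ier3, Maff and Fosl2, with log2 fold changes of 1.03, 0.88 and 0.36. Ier3, a regulator of survival, was at 4.03 and 4.64 CPM in fasted and at 9.67 and 8.01 CPM in leptin libraries. Fos, the gene most used as a marker of neuronal activation, was at 12.3 ± 5.65 CPM in fasted and at 15.5 ± 2.05 CPM in leptin libraries (SD, n = 2 each), and the states overlapped (log2 fold change 0.35, edgeR FDR 0.679). The activity genes Egr1, Arc, Npas4 and Nr4a1 had log2 fold changes of 0.12, -0.27, -0.19 and 0.01. The median of the list was 0.14.

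In 4 lists of other cell programmes 0 genes were called, and the shares at an unadjusted p under 0.05 are read beside 4.62% higher and 3% lower among all genes. Of 29 genes of the unfolded protein response 2 had higher and 1 had lower values at an unadjusted p under 0.05, and the chaperone Hspa5 had a log2 fold change of 0.08. Of 20 genes of fuel use and fatty acid oxidation the counts were 1 and 1. Of 10 targets of insulin and FoxO signalling they were 2 and 0, and of 77 cytosolic ribosomal protein genes they were 1 and 0. Both leptin libraries lay above both fasted libraries for 19 of the 77 and below them for 0, beside 8.8% and 8.5% of all genes. The median log2 fold changes of these 4 lists lay between -0.01 and 0.08.

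**Figure D3:**
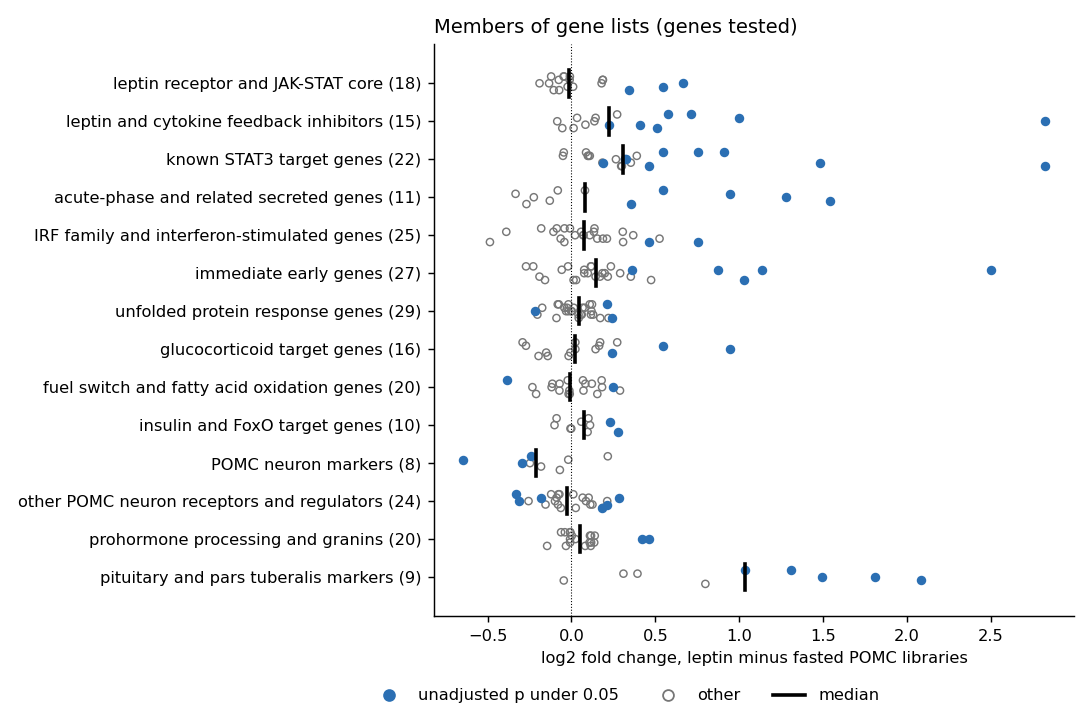
Each point is a tested member of the gene list named on the y axis (number tested in brackets), placed by its log2 fold change between leptin and fasted POMC libraries on the x axis. Filled points have an unadjusted p under 0.05 and black bars are medians, which run from -0.21 for POMC neuron markers to 1.04 for pituitary and pars tuberalis markers.

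Pomc was not called. It was at 1456 and 1085 CPM in fasted, 1546 and 1368 CPM in leptin and 2001 and 1237 CPM in fed libraries, and its log2 fold change between leptin and fasted was 0.22 ± 0.11 SE (edgeR FDR 0.678). It was higher in leptin than in fasted libraries within each number (log2 ratios of 0.09 and 0.33), although the states overlapped. Cartpt, the precursor of the anorexigenic peptide CART, was at 497 and 351 CPM in fasted and at 499 and 251 CPM in leptin libraries (log2 fold change -0.24). Of the 8 POMC neuron markers, Cartpt and the transcription factors Tbx3 and Prdm12 had an unadjusted p under 0.05, all 3 with lower values in leptin libraries, beside 3% of all genes. Prdm12, which is required for Pomc expression, was at 107 and 60.3 CPM in fasted and at 76.1 and 33.9 CPM in leptin libraries. It was lower within each number (log2 fold change -0.65 ± 0.13 SE, FDR 0.206), although the states overlapped. A log2 fold change above 0 was held by 1 of the 8, Pomc, beside 6727 of all 13412 genes. The list's median was -0.21, and its median log2 ratios within numbers 1 and 2 were -0.11 and -0.27. The summed level of the 8 markers, of which Pomc is the largest part, was 2430 and 1728 CPM in fasted and 2460 and 1845 CPM in leptin libraries. This sum therefore mainly follows Pomc and not the other markers.

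Genes for making and releasing peptides differed little. Of 20 prohormone processing genes and granins, Chga and Gnas had an unadjusted p under 0.05, both with higher values. The annotation holds another entry, Gnas.2, at 2999 and 2807 CPM in fasted and at 3190 and 2788 CPM in leptin libraries. The states overlapped for that entry, so the higher values of Gnas cannot be read for the gene as a whole. Chga, a granin of dense-core vesicles, was at 79.2 and 78.3 CPM in fasted and at 101 and 110 CPM in leptin libraries (log2 fold change 0.42 ± 0.08 SE), with no overlap. The convertases Pcsk1 and Pcsk2, which cut the Pomc precursor, had log2 fold changes of -0.15 and 0.14, and Cpe, which trims the products, had 0.11. Of 24 receptors and regulators of POMC neurons 0 were called, and 3 had higher and 3 lower values at an unadjusted p under 0.05, beside 4.62% and 3% of all genes. The melanocortin receptor Mc3r and the neuropeptide Y receptors Npy1r and Npy2r were the 3 with higher values, with log2 fold changes of 0.28, 0.21 and 0.18, while Npy5r, the potassium channel subunit Kcnj11 and the PACAP receptor Adcyap1r1 had -0.33, -0.31 and -0.18. Agrp lay between 10.5 and 26.7 CPM in the 4 libraries, with overlapping states and a log2 fold change of 0.02.

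Several genes of the pituitary gland had higher values in the leptin libraries. Of 12 pituitary and pars tuberalis markers 9 were tested, and 5 had an unadjusted p under 0.05, all with higher values, beside 4.62% of all genes, but 0 were called. Cga, the shared subunit of glycoprotein hormones, was at 4.91 and 3.59 CPM in fasted and at 14.7 and 6.88 CPM in leptin libraries (log2 fold change 1.31 ± 0.19 SE, FDR 0.0663). Fshb was at 1.69 and 0.803 CPM in fasted and at 4.23 and 4.45 CPM in leptin libraries. Tbx19, a transcription factor of the Pomc-expressing cells of the pituitary, was at 2.74 and 3.91 CPM in fasted and at 4.99 and 14.9 CPM in leptin libraries. Growth hormone, Gh, was present only in the libraries numbered 2 beyond 1 read, at 1.92 CPM in fasted and 8.37 CPM in leptin library 2.

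The summed level of the 12 markers was 21.4 and 32.3 CPM in fasted, 23.7 and 34.1 CPM in fed and 42.1 and 69.2 CPM in leptin libraries, so that leptin libraries held 1.96 and 2.14 times the sum of the fasted library of the same number. No marker of the list was at 0 in all of the libraries, but Pou1f1 had 0 reads in 4 of the 6. Some pituitary cells express Pomc, and their part in the level of Pomc and of the genes that rose was not tested. Among other cell types, astrocyte markers other than Slc1a2 summed to 738 and 1179 CPM in fasted and 804 and 1295 CPM in leptin libraries, and endothelial and mural markers to 183 and 197 CPM and to 172 and 160 CPM. Microglial markers summed to 27.2 and 58.8 CPM in fasted and to 34.8 and 46.3 CPM in leptin libraries.

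**Figure D4:**
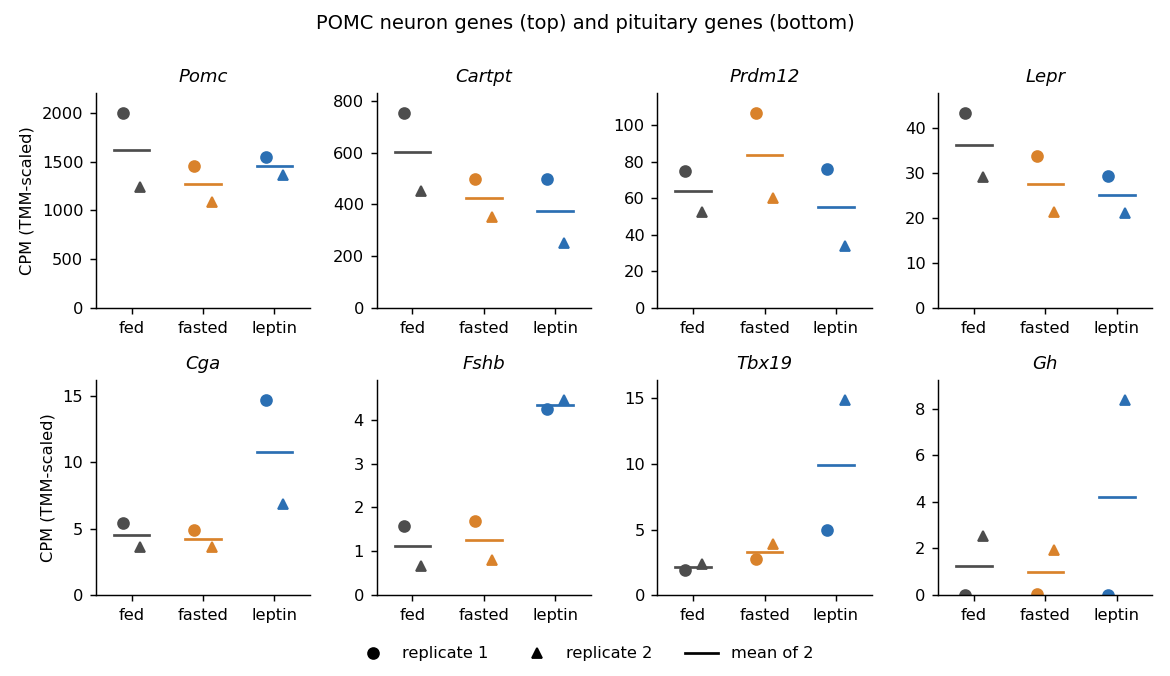
TMM-scaled CPM in fed, fasted and leptin POMC libraries on linear y axes from 0 (circle, replicate 1; triangle, replicate 2; line, mean) for 4 genes of POMC neurons in the top row and 4 genes of the pituitary in the bottom row. Pomc, Cartpt, Prdm12 and Lepr overlap between fasted and leptin, while Cga, Fshb and Tbx19 are higher in both leptin libraries and Gh is high in leptin library 2 alone.

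Beyond the called genes, those with the smallest p gave further values without passing the FDR threshold. Rnd3, an atypical small GTPase, was at 23.3 and 23.7 CPM in fasted and at 39.1 and 36.3 CPM in leptin libraries (log2 fold change 0.68 ± 0.09 SE, FDR 0.0542). The transcript Rasl11a.2, a second entry of the annotation for a small GTPase gene, was at 1.07 and 1.08 CPM in fasted and at 4.29 and 3.18 CPM in leptin libraries (FDR 0.0627). Rgs4, which shortens signalling through G proteins, was at 136 and 112 CPM in fasted and at 176 and 167 CPM in leptin libraries (FDR 0.0953). Epcam, a cell adhesion protein of epithelia, was at 1.04 and 1.40 CPM in fasted and at 2.83 and 6.04 CPM in leptin libraries (FDR 0.0796). The leptin values lay above the fasted values for all 4.

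Toward lower values, the next smallest p belonged to Macf1, a protein that links actin to microtubules, at 220 and 189 CPM in fasted and 153 and 138 CPM in leptin libraries (log2 fold change -0.49 ± 0.07 SE, FDR 0.0796). The log2 fold changes of the spectrin Sptbn1, the myosin Myo18a and the nesprin Syne1 were -0.42, -0.35 and -0.34, with FDR values of 0.198, 0.339 and 0.360. Npvf, which encodes an RFamide peptide, was at 4.09 and 3.32 CPM in fasted and at 1.82 and 1.16 CPM in leptin libraries (log2 fold change -1.32 ± 0.22 SE, FDR 0.109). The phosphatase Ptprb of endothelial cells had a log2 fold change of -0.51. Endothelial and mural markers as a list had a median of -0.19. At an unadjusted p under 0.05, 2 of 12 had lower and 0 had higher values, beside 3% and 4.62% of all genes. The list's median log2 ratio was 0.01 within the libraries numbered 1 and -0.42 within those numbered 2.

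In fed mice the genes that rose after leptin mostly lay between the other states. Socs3 was at 4.79 and 3.63 CPM in fed libraries, above both fasted and below both leptin libraries, and the same order held for Atf3 at 4.58 and 2.33 CPM, for Sbno2 at 13.4 and 11.6 CPM and for Jun at 46.1 and 38.1 CPM. Against fed libraries, Socs3 had a log2 fold change of -1.48 in fasted (FDR 0.062) and of 1.34 in leptin libraries (FDR 0.0178), and these contrasts share libraries with each other. Nptx2 differed: it was at 141 and 89.8 CPM in fed libraries and was 1 of 3 genes called lower in fasted than in fed mice (0.0224% of those tested; log2 fold change -0.74, FDR 0.0125), while its log2 fold change between leptin and fed libraries was -0.09. Wdfy1 was at 33.4 and 35.4 CPM in fed libraries, between leptin and fasted.

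AgRP neurons from the same treatments, in 4 fasted and 4 leptin libraries, gave many more calls, at 240 higher and 144 lower of 13435 genes (1.79% and 1.07%). The number of libraries per state differed between the cell types, so these counts are not a comparison of the size of the response. Of the 240 genes, 222 were tested in POMC libraries, and there their median log2 fold change was 0.30 beside 0.79 in AgRP libraries. For 104 of the 222 (46.8%) the POMC leptin libraries lay above the POMC fasted libraries, beside 8.75% of all genes tested in both models. Of the 144 genes that were lower in AgRP neurons, 131 were tested in POMC libraries, with a median of -0.05. The overlap of calls was 6 genes, which is 85.7% of those that rose in POMC neurons and 2.5% of those that rose in AgRP neurons, and AK140265 was the exception.

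The difference between the leptin effects was tested itself, as an interaction in a model of all 17 libraries, and 57 genes had a more positive effect (0.424%) and 45 a more negative effect (0.335%) in POMC than in AgRP neurons. Gpr151, an orphan receptor of neurons, was at 0.869 and 1.16 CPM in POMC fasted and at 1.37 and 1.43 CPM in POMC leptin libraries, and it went from between 0.625 and 1.54 CPM to between 11.2 and 19.8 CPM in AgRP libraries. The difference was -3.51 ± 0.41 SE on the log2 scale (FDR 0.000973). Steap4, a metalloreductase, had log2 fold changes of 1.33 in POMC and 5.73 in AgRP neurons, with a difference of -4.39 ± 0.72 SE. It passed the filter on low values through the AgRP leptin libraries (mean 12.4 CPM), where it is high, while its POMC means were 0.384 CPM in fasted and 1.01 CPM in leptin libraries. The other 3 of the 5 most negative differences were those of the interleukin receptor Il10ra (-2.63), the immune regulator Nlrc5 (-2.59) and the lipase Lipg (-2.44), none of which had an FDR under 0.05 in POMC neurons. Nlrc5 likewise passed the filter through the AgRP leptin libraries (mean 2.66 CPM), where it is high. Its means were 0.522 CPM in AgRP fasted, 1.04 CPM in POMC fasted and 0.935 CPM in POMC leptin libraries.

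Of the 8 genes called in POMC neurons, Sbno2 had a smaller rise there than in AgRP neurons (difference -0.93 ± 0.18 SE, FDR 0.0264), though its FDR was 0.323 without the block, 0.082 without fasted replicate 1, 0.301 without fasted replicate 2 and 0.247 without leptin replicate 2. For Socs3 the log2 fold changes were 2.84 in POMC and 3.74 in AgRP neurons, and the difference of -0.90 ± 0.27 SE did not pass the threshold (FDR 0.200), but did in DESeq2 with the block (-0.93, FDR 0.0288). Etv6, Jun and Atf3 had differences of -0.20 ± 0.16, 0.05 ± 0.18 and 0.11 ± 0.51 SE, which did not pass the threshold. An equal effect lies within 1 SE for Jun and Atf3, and for Atf3 so does a sizeable difference either way. For Etv6 an equal effect lies just beyond 1 SE (edgeR FDR 0.768). The differences of AK140265 (1.77 ± 0.55 SE), Wdfy1 (-0.73 ± 0.37 SE) and Nptx2 (-0.62 ± 0.19 SE) did not pass the threshold either, at FDR values of 0.221, 0.564 and 0.224. In DESeq2 with the block the FDR of Nptx2 was 0.0352.

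The most positive differences came from several patterns. Dusp5, a phosphatase of ERK, Nr4a1, a nuclear receptor of the immediate early class, and the neuromedin B receptor Nmbr fell in AgRP neurons, by 1.54, 1.80 and 1.55 on the log2 scale, and had log2 fold changes of 0.49, 0.01 and 0.03 in POMC neurons. Epcam and Tbx19 instead had log2 fold changes of 1.84 and 1.51 in POMC neurons and of -0.18 and -0.43 in AgRP neurons, where the libraries held few reads of either (means of 0.678 and 0.910 CPM in the fasted state). Epcam passed the filter through the POMC leptin libraries (mean 4.62 CPM), the group where it is high, and Tbx19 is on the list of pituitary markers, whose sum in POMC leptin libraries was 1.96 and 2.14 times that of the fasted library of the same number. The interaction counts fell to 5 more positive and 6 more negative without the block. They were 15 and 11 without fasted replicate 1, 17 and 11 without fasted replicate 2, 41 and 23 without leptin replicate 1 and 20 and 12 without leptin replicate 2.

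**Figure D5:**
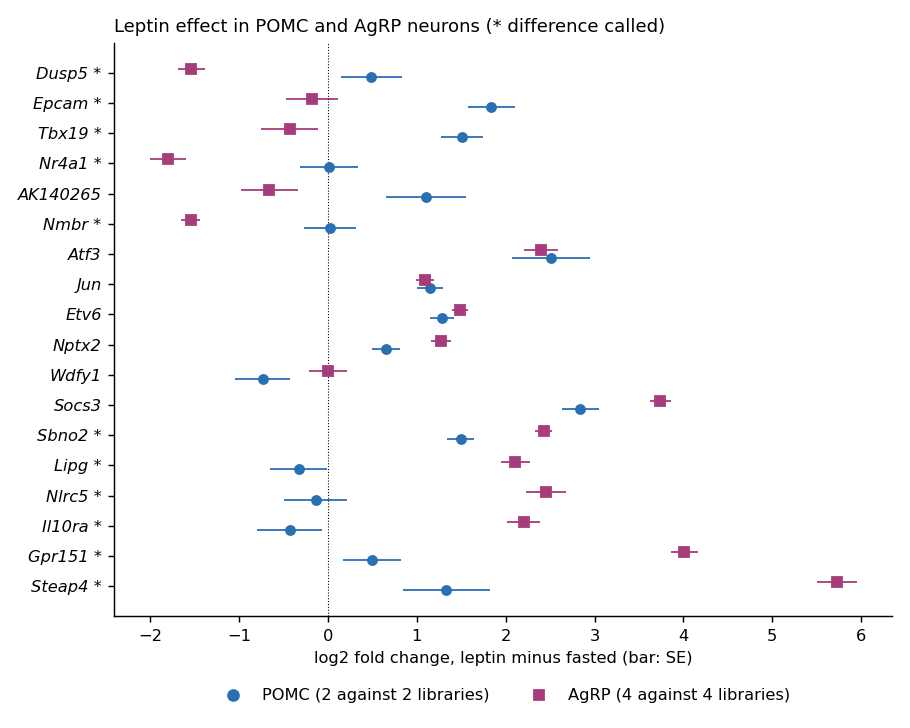
Log2 fold change between leptin and fasted libraries, with its SE as a bar, in POMC (circles) and AgRP neurons (squares), from the model of all 17 libraries, for the 5 most positive and 5 most negative differences and the 8 genes called in POMC neurons. An asterisk marks a difference called between the cell types, as for Gpr151 at 0.50 in POMC and 4.01 in AgRP neurons.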

How the data were processed

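TRAP RNA was depleted of ribosomal RNA and made into libraries with a kit that does not mark strand. The authors used HISAT2 to align reads to mm10, assigned them to genes with featureCounts on a gene model set altered to reduce overlaps, and deposited raw counts beside the length of each gene. Tool versions are not given in the sources used here. The protocol in the labels names the AgRP line for every TRAP sample.

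Counts of the 6 POMC libraries (30704075 to 53217053 reads each) were fitted in R 4.3.3 with edgeR 4.0.16 (quasi-likelihood test, TMM scaling, mean over 1 CPM), with the state and the replicate number as terms, and the leptin minus fasted contrast was taken as changed where its FDR was below 0.05 and its log2 fold change beyond 0.5 either way. The interaction used all 17 libraries of AgRP and POMC neurons, in which CPM values differ slightly by scaling. Standard errors are those implied by the F statistic, CPM values are TMM-scaled, and the code was tested on simulated data. Each library is a pool of mice, so the spread between single mice is not measured. With the number as a block, p-values measure the spread between pools that remains once the difference between the numbers is taken out. Deviations from the state means correlated between libraries of the same number at 0.733, 0.756 and 0.770 over 13412 genes, which is how the pairing was checked. With 2 libraries a state, each value stands for both numbers. Promoter windows and gene symbols came from RefSeq (GRCm38.p6) and were searched with Python 3.11.15. DESeq2 1.42.0 and the other settings are compared below. The members and the 24 gene lists were chosen with earlier results of these data known. Genes were named if on a signalling or POMC list, or among the 15 with the largest called change or else the smallest p in each direction, or the 5 most positive and 5 most negative called interactions. Markers of AgRP neurons, oligodendrocytes, and tanycytes and ependymal cells had median log2 fold changes of 0.12, 0.04 and -0.07 (1, 0 and 1 higher and 0, 0 and 0 lower at an unadjusted p under 0.05, of 8, 12 and 8 tested). Arcuate neuropeptides (20 tested), transmitter genes (11) and genes that the study named as called in AgRP neurons (20) had medians of 0.23, 0.06 and 0.35.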

Additional observations from a re-analysis of the deposited data

Results flagged for a closer look

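The leptin effect differed between POMC and AgRP neurons, by the interaction in edgeR, for 11 of the genes named. It was more positive in POMC neurons for Dusp5 (2.03 on the log2 scale), Epcam (2.02), Tbx19 (1.94), Nr4a1 (1.81) and Nmbr (1.57). Tbx19 is on the list of pituitary markers, whose summed level in POMC leptin libraries was 1.96 and 2.14 times that of the fasted library of the same number, and the part of those cells was not tested. Epcam, Steap4 and Nlrc5 passed the filter on low values through the group where each is high. The leptin effect was more negative in POMC neurons for Steap4 (-4.39), Gpr151 (-3.51), Il10ra (-2.63), Nlrc5 (-2.59), Lipg (-2.44) and Sbno2 (-0.93). Gpr151 passed the threshold without the block and without each of the 4 POMC fasted and leptin libraries in turn. Each of the other 10 lost the call when at least 1 of these libraries was left out.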

How the results depend on the processing

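All tests here rest on 2 libraries a state, and genes near 1 CPM rest on about 50 reads a library or fewer. The POMC comparison (7 genes higher and 1 lower) gave 0 and 0 without the replicate block, 47 and 8 with the 4 fasted and leptin libraries alone, 16 higher with all 17 libraries in a model, 14 higher with library size alone, and 32 and 5 with DESeq2. Leaving out each of the 6 libraries in turn gave between 22 and 122 higher and between 1 and 19 lower. The counts with the older quasi-likelihood method (8 and 1), no filter (6 and 1), a filter of 5 CPM (5 and 1) and DESeq2 size factors (6 and 1) were within 1.5 times of these. Of the 8 genes called higher with the older method, 5 were among the 7 of the main fit. AK140265 (FDR 0.073) and Jun (FDR 0.104) lost their call there, while Rnd3, Rasl11a.2 and Cga gained one. All 8 genes lost their call in edgeR without the block, at FDR values from 0.892 for Socs3 to 1, while their fold changes stayed within 0.17 of the main values. DESeq2 without the block, an alternative added after seeing the data, called 9 higher and 1 lower, among them Socs3, Atf3, Sbno2, Etv6, Jun and Wdfy1. The log2 fold change of Gh was between -2.65 and 2.12 when a library was left out, and it reversed without fasted replicate 2, whose absence leaves 1 fasted read of that gene. Library size alone and DESeq2 size factors moved the median of all genes by less than 0.005.

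The interaction (57 more positive and 45 more negative) gave 5 and 6 without the replicate block, 96 and 89 with DESeq2, and between 15 and 41 more positive and between 11 and 23 more negative when a POMC fasted or leptin library was left out. The difference for Jun, 0.05 and not called, lay between -0.26 and 0.36 with a library left out and was negative without fasted replicate 1 and without leptin replicate 1. It gave 51 and 47 with DESeq2 size factors, 55 and 53 with library size alone and 60 and 49 with no filter. The causes of these shifts were not tested.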

Other observations

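Some genes with large fold changes that were not called were high in a single leptin library. They are named after their values were seen. The transporter Slc47a1 was at 0.169 and 0.244 CPM in fasted libraries, at 4.04 CPM in leptin library 1 and at 0.409 CPM in leptin library 2 (log2 fold change 3.38). The transporter Slc22a6 was at 0.282 and 0.593 CPM in fasted, 4.96 CPM in leptin library 1 and 0.818 CPM in leptin library 2. The matrix proteoglycan Fmod was at 2.26 and 3.52 CPM in fasted, 27.0 CPM in leptin library 1 and 3.44 CPM in leptin library 2, and the cadherin Cdh1 was at 0.423, 0.209, 3.06 and 0.698 CPM in the same order. Leptin library 1 is also the library with 9697 CPM of Rn45s. In leptin library 2 instead, Oacyl was at 23.7 CPM, beside 0.846 and 3.28 CPM in fasted libraries and 1.01 CPM in leptin library 1. Of the POMC-neuron libraries, the pituitary genes Gh and Prl were above 1 CPM in those numbered 2 (Gh) and in leptin library 2 alone (Prl, 4.48 CPM).

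The dopamine receptor Drd1, likewise chosen after its values were seen, was at 6.94 and 8.24 CPM in fasted and at 15.6 and 12.4 CPM in leptin libraries of POMC neurons (log2 fold change 0.89 ± 0.15 SE, FDR 0.114). In AgRP neurons its log2 fold change was 2.61 ± 0.11 SE, and the difference of -1.71 ± 0.20 SE was called by the interaction. Vim, which marks tanycytes among other cells, was at 28.3 ± 2.36 CPM in fasted, 51.2 ± 22.9 CPM in leptin and 59.3 ± 16.9 CPM in fed libraries (SD, n = 2 each).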
